A study of Danio rerio with 15 samples.

Results

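The 100 transcripts with the most reads in zebrafish skeletal muscle were followed through 15 fish of 4 groups. They are 100 of the 57775 transcripts in the tables, and 57554 transcripts could be ranked once 13 mitochondrial transcripts, taken by their identifiers, and 208 transcripts of 12000 bases or more were set aside. The members were chosen by their mean level over 14 fish in CPM (the reads assigned to a transcript, scaled to the same sum of assigned reads in every fish), so the levels below are a description. All fish were adult females of the scaf1 Δ1 line or of its wild-type sibling line, about 7 months old when the diets began, and fed for 6 weeks. The labels give 13 fish per 2 l tank and dry food only, while the methods give fewer fish per tank and also artemia. The groups were scaf1-/- fish on double diet (5 feeds a day, 4 fish), scaf1+/+ fish on double diet (3 fish), scaf1-/- fish on standard diet (3 feeds a day, 4 fish) and scaf1+/+ fish on standard diet (4 fish). The scaf1-/- fish carry a CRISPR/Cas9 deletion in scaf1, whose protein joins respiratory complexes III and IV, in every cell and from fertilisation on, and both genotypes came from 1 line. The comparisons ask how the mutation and the diet each change muscle RNA.

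Skeletal muscle is a specialised tissue whose RNA is usually dominated by few genes, those for contractile filaments, calcium binding and pumping, and the enzymes that supply ATP from glycogen and phosphocreatine. White trunk muscle of fish is mostly fast and glycolytic, with a thinner layer of slow, oxidative fibres at its side. RNA-seq reads are shared out within a library, so a rise in a few abundant transcripts lowers the count of the rest. The tables pair no transcript with a gene, so the members are named by identifier and abundance rank, no function is given to any of them, and the label muscle could not be checked against marker genes. In RNA of whole tissue, fewer cells of a type and less RNA per cell cannot be told apart.

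Total counts were 11671308 to 15844496 in 14 fish and 4045333 in scaf1+/+ standard diet replicate C. That library also stood apart in content, with 15655 transcripts detected against 27748 to 35800 elsewhere. It had no count for 7 of the 100 transcripts, each of which would have had at least 2624 counts there at its lowest level in the other fish. Its level lay below all 14 other fish for 38 of the 100 transcripts and above all of them for 17, and it was left out of the ranking.

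The 100 transcripts were 0.174% of those ranked and held 42.9% ± 8.99 of all counts (SD, n = 14 fish). Ranks 1 to 10 alone held 20.7% ± 5.11, and ranks 11 to 100 held 22.2% ± 4.11. Mean levels ran from 29188 CPM at rank 1 to 789.8 CPM at rank 100, a 37.0-fold range. There was no step at the limit. Rank 98 averaged 797.1 CPM, rank 99 794.2 CPM and rank 100 789.8 CPM, while the next 3 transcripts, which are not members, averaged 785.6, 782.8 and 778.8 CPM. The transcripts were 416 to 6621 bases long with a median of 1426 bases, close to the 1430 bases of the next 200 in rank and shorter than the 2199 bases of the 21074 ranked transcripts at 1 CPM or more.

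The share of counts held by the 100 transcripts differed widely between fish of 1 group. In scaf1-/- double diet fish it was 51.4%, 46.8%, 41.7% and 47.2% (replicates 2, 3, 6 and 7), against 37.9%, 47.5% and 44.1% in scaf1+/+ double diet fish (replicates 2, 3 and 4). On standard diet, scaf1-/- fish had 33.6%, 35.6%, 54.0% and 57.5% (replicates 6, A, B and C), and scaf1+/+ fish had 32.1%, 25.7%, 45.7% and 39.4% (replicates 6, 7, B and C). The group means were 46.8% ± 3.97 in scaf1-/- and 43.2% ± 4.90 in scaf1+/+ fish on double diet, and 45.2% ± 12.3 in scaf1-/- and 35.7% ± 8.68 in scaf1+/+ fish on standard diet (SD, n = 4, 3, 4 and 4), with 34.5% ± 10.2 in the last group without replicate C. In both diets the range of the scaf1-/- fish overlapped that of the scaf1+/+ fish. The standard diet fish were further apart than those on double diet. In scaf1-/- replicates B and C, 58 and 41 transcripts made up 50% of all counts, whereas 485 and 415 were needed in replicates 6 and A of the same group and 735 in scaf1+/+ replicate 7. That last fish had the lowest level of the 14 fish for 43 of the 100 transcripts, and only 10 of the 100 lay above their median over the 14 fish in it. The share of mitochondrial transcripts was 10.5% to 14.01% in scaf1-/- and 5.30% to 11.4% in scaf1+/+ fish on double diet, and 6.96% to 11.2% in scaf1-/- and 5.08% to 12.0% in scaf1+/+ fish on standard diet. With these transcripts left out of the total, the 100 held 53.1% ± 4.98 in scaf1-/- and 47.6% ± 6.96 in scaf1+/+ fish on double diet, and 49.9% ± 13.7 in scaf1-/- and 38.9% ± 10.04 in scaf1+/+ fish on standard diet (37.0% ± 11.3 in the last group without replicate C).

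**Figure D1:**
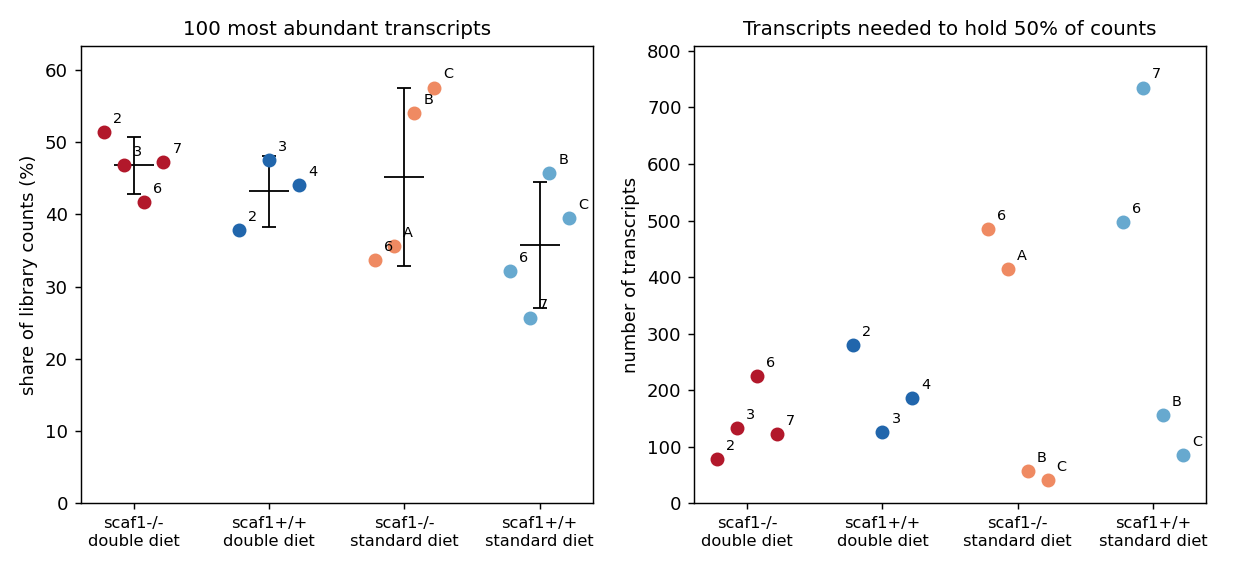
The left plot gives the percent of each library's counts held by the 100 most abundant transcripts. The right plot gives the number of ranked transcripts that together hold 50% of all its counts, in which the mitochondrial ones are still included. Each point is 1 fish with its replicate mark, and the bars on the left are group means with SD. Standard diet fish run from 25.7% to 57.5% on the left and from 735 to 41 transcripts on the right.

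The set of 100, though not their order, was largely shared by most groups, whose fish also made the list. Of the 100 transcripts, 89 were in the top 100 of scaf1-/- and 92 in that of scaf1+/+ double diet fish, 89 in that of scaf1-/- and 76 in that of scaf1+/+ standard diet fish (74 without replicate C). In single fish other than replicate C, 56 to 89 of the top 100 were members, and 45 members were in the top 100 of all 14 fish. The unit mattered more than the group, though not more than the single fish with 56. Ranked by TPM (counts divided by effective transcript length and then scaled to the same sum in every fish), 57 of the 100 stayed. ENSDART00000169420.2, rank 1 and only 811 bases long, was also first by TPM, with 45818 ± 10296 TPM (SD, n = 14). ENSDART00000028219.7, rank 9 with 648 bases, and ENSDART00000010144.7, rank 8 with 711 bases, followed by TPM at 28731 ± 7963 and 28355 ± 14261. ENSDART00000051362.7, rank 2 by reads but 5906 bases long, fell to place 26 by TPM with 4785 ± 1722. These 4 values are levels per length, and the difference of the second and the third is smaller than their SD.

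Rank 1 had 34235, 33403, 32187 and 30568 CPM in scaf1-/- double diet fish, against 25663, 34524 and 34289 CPM in scaf1+/+ double diet fish. On standard diet it had 15959, 19493, 43341 and 37531 CPM in scaf1-/- fish (replicates 6, A, B and C) and 19115, 13685, 34637 and 29695 CPM in scaf1+/+ fish (replicates 6, 7, B and C). The double diet groups covered a narrow range, while each standard diet group held a pair of low and a pair of high fish. Rank 2 showed the same split in scaf1-/- standard diet fish, with 14208 and 9497 CPM in replicates 6 and A and 41282 and 50983 CPM in B and C, against 13410, 15995, 22593 and 7847 CPM in scaf1+/+ standard diet fish. On double diet it had 45026, 34408, 27786 and 36895 CPM in scaf1-/- fish and 25962, 34509 and 30465 CPM in scaf1+/+ fish.

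ENSDART00000032481.6, rank 3 with 1584 bases, was 1 of 3 members whose level in CPM was higher in every scaf1-/- fish than in every scaf1+/+ fish on standard diet, where 0.682% of all transcripts tested were. It had 25953, 28062, 37145 and 32857 CPM in scaf1-/- fish, against 17553, 15353, 25861 and 8017 CPM in scaf1+/+ fish. The gap between the groups was narrow, since scaf1+/+ replicate B lay just under scaf1-/- replicate 6. On double diet the groups overlapped, with 24382, 23806, 29104 and 49935 CPM in scaf1-/- fish and 22842, 30983 and 34044 CPM in scaf1+/+ fish.

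The order within the top 10 was therefore loose. Rank 4, ENSDART00000066430.7, averaged 23372 ± 12779 CPM, rank 5, ENSDART00000059366.7, 19902 ± 6878 CPM, and rank 6, ENSDART00000168845.2, 19468 ± 8407 CPM (SD, n = 14 each). Neighbours in this order differed by less than their SD throughout ranks 1 to 10, as ranks 7 to 9 also show. ENSDART00000075465.5 (rank 7) averaged 15787 ± 7885 CPM, rank 8 15225 ± 8359 CPM and rank 9 13544 ± 4948 CPM. Among ranked transcripts, the one with the most reads in a fish was rank 1 in 5 of the 15 fish and rank 10 in 4.

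**Figure D2:**
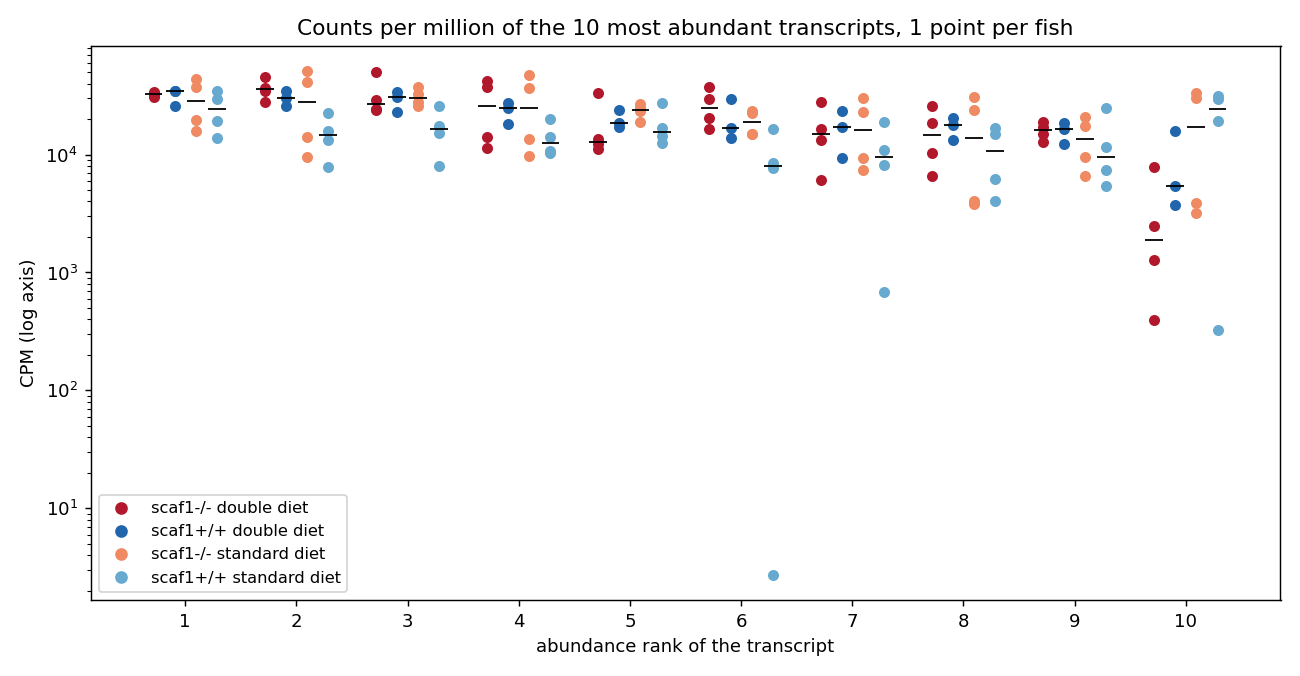
The level in CPM is plotted on a log axis for the 10 most abundant transcripts, with 1 point per fish, colours for the 4 groups and a short line at each group's median. The groups overlap at nearly every rank, and rank 10 spans 324 to 33066 CPM, with 2.72 CPM for rank 6 in scaf1+/+ standard diet replicate C as the lowest point.

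Rank 10, ENSDART00000125917.4 (5981 bases), was unlike the other leading transcripts. It had 1282, 395.5, 2462 and 7779 CPM in scaf1-/- and 5390, 15981 and 3731 CPM in scaf1+/+ double diet fish. On standard diet it reached 33066 and 30342 CPM in scaf1-/- replicates 6 and A, but 3166 and 3920 CPM in replicates B and C, and it had 31348, 19317, 29723 and 324.1 CPM in scaf1+/+ replicates 6, 7, B and C. The 5 highest levels were thus all in standard diet fish, of both genotypes. In scaf1-/- fish the log2 fold change of double over standard diet was -1.91 ± 1.06 (SE), with an edgeR adjusted p of 0.953, and in scaf1+/+ fish it was -0.78 ± 1.13, with an adjusted p of 1 (-1.12 ± 0.997, adjusted p = 0.991, without replicate C). In scaf1-/- fish the spread within the standard diet group was of the size of the difference. In scaf1+/+ fish this held only with replicate C. Without it the standard diet mean was 26796 CPM with an SD of 6528, against 8367 CPM with an SD of 6646 on double diet. Every scaf1+/+ double diet fish then lay below every standard diet fish, as in 12.1% of all transcripts tested.

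Spread between fish, as the SD of log2(CPM + 1) over 14 fish, had a median of 0.51 over the 100 transcripts and ran from 0.18 to 4.48. The median was 0.52 over the next 200 in rank. In 44 of the 100 the highest fish was less than 3 times the lowest, and in 11 it was more than 10 times the lowest. The steadiest was ENSDART00000061001.5 (rank 91), with 855.0, 721.4, 801.7 and 1159 CPM in scaf1-/- and 946.1, 898.9 and 854.3 CPM in scaf1+/+ double diet fish, and 818.8, 757.2, 750.0 and 789.6 CPM in scaf1-/- and 753.9, 728.0, 786.7 and 916.9 CPM in scaf1+/+ standard diet fish. ENSDART00000024199.8 (rank 58), ENSDART00000060363.5 (rank 63) and ENSDART00000078522.6 (rank 60) came next, with SDs of 0.19, 0.22 and 0.24. Within groups the median SD was 0.38 in scaf1-/- and 0.30 in scaf1+/+ double diet fish, and 0.46 in scaf1-/- and 0.73 in scaf1+/+ standard diet fish (0.50 without replicate C).

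**Figure D3:**
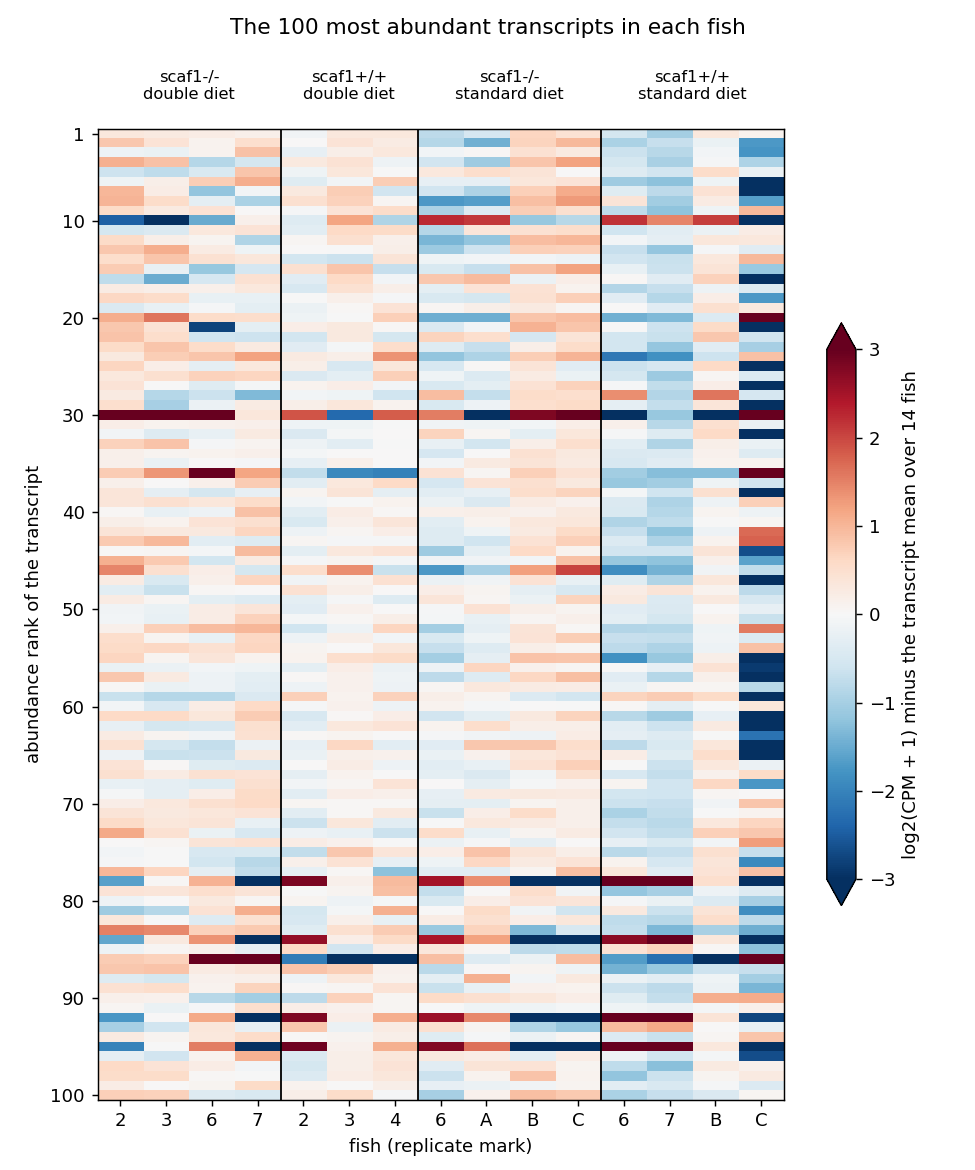
Each row is 1 of the 100 transcripts from rank 1 at the top to rank 100, each column 1 fish, and the colour is log2(CPM + 1) minus the mean of that transcript over the 14 fish other than scaf1+/+ standard diet replicate C. Most rows are pale and a few are strongly coloured, among them ranks 10, 30, 78, 84, 86, 92 and 95, and the last column holds the 7 transcripts with no count in replicate C.

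Some members were abundant in some fish and nearly absent in others. ENSDART00000142582.3 (rank 30, 1304 bases) had the largest SD. It had 6798, 17044, 5524 and 539.7 CPM in scaf1-/- and 1584, 83.8 and 1512 CPM in scaf1+/+ double diet fish. On standard diet it had 1250, 0.17, 3008 and 4978 CPM in scaf1-/- fish and 0, 195.2, 22.5 and 26041 CPM in scaf1+/+ fish, where the count of 0 in replicate 6 allows up to 0.250 CPM for counting error alone. Fish of the same group thus differed widely in all 4 groups.

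ENSDART00000190225.1 (rank 86, 438 bases) owed its place to 1 fish. It had 41.0, 38.5, 11370 and 714.1 CPM in scaf1-/- and 4.77, 1.08 and 0.91 CPM in scaf1+/+ double diet fish, and 44.7, 17.9, 20.9 and 45.5 CPM in scaf1-/- and 6.68, 4.15, 1.71 and 13784 CPM in scaf1+/+ standard diet fish. Apart from replicate C, every scaf1-/- fish was above every scaf1+/+ fish of either diet. ENSDART00000143781.3 (rank 36, 896 bases) had a like pattern at higher levels. It had 2260, 3354, 14088 and 3046 CPM in scaf1-/- and 799.8, 349.7 and 324.7 CPM in scaf1+/+ double diet fish, and 1801, 1383, 2184 and 1818 CPM in scaf1-/- and 650.0, 555.3, 553.9 and 51406 CPM in scaf1+/+ standard diet fish. Here too every scaf1-/- fish was above every scaf1+/+ fish but replicate C. On double diet alone, 2.24% of all tested were higher in every scaf1-/- fish, and on standard diet without replicate C 1.21% were. The share over both diets was not counted. Ranks 36 and 86 are members through scaf1-/- fish, so their separation is a description. The 2 transcripts correlated at r = 0.94 over the other 14 fish, among which both peaked in scaf1-/- double diet replicate 6.

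Another 4 members, chosen after their values were seen, varied together over a range of 414 to 710 times. These were ENSDART00000171075.2 (rank 78, 3099 bases), ENSDART00000099360.5 (rank 84, 1351 bases), ENSDART00000151778.3 (rank 92, 4115 bases) and ENSDART00000123007.3 (rank 95, 6621 bases). Rank 78 had 102.8, 327.8, 658.6 and 16.1 CPM in scaf1-/- and 2276, 358.2 and 620.2 CPM in scaf1+/+ double diet fish. On standard diet it had 1823, 848.7, 13.2 and 5.60 CPM in scaf1-/- fish and 2959, 3209, 454.9 and 38.1 CPM in scaf1+/+ fish. The lowest fish were thus scaf1-/- replicates B and C on standard diet and replicate 7 on double diet, and the highest were scaf1+/+ replicates 6 and 7 on standard diet. Pairwise correlations of log2(CPM + 1) among the 4 were 0.997 to 0.999 over the 14 fish, while the highest with any other member was 0.88. These are descriptions, since all members share the same libraries and their composition.

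**Figure D4:**
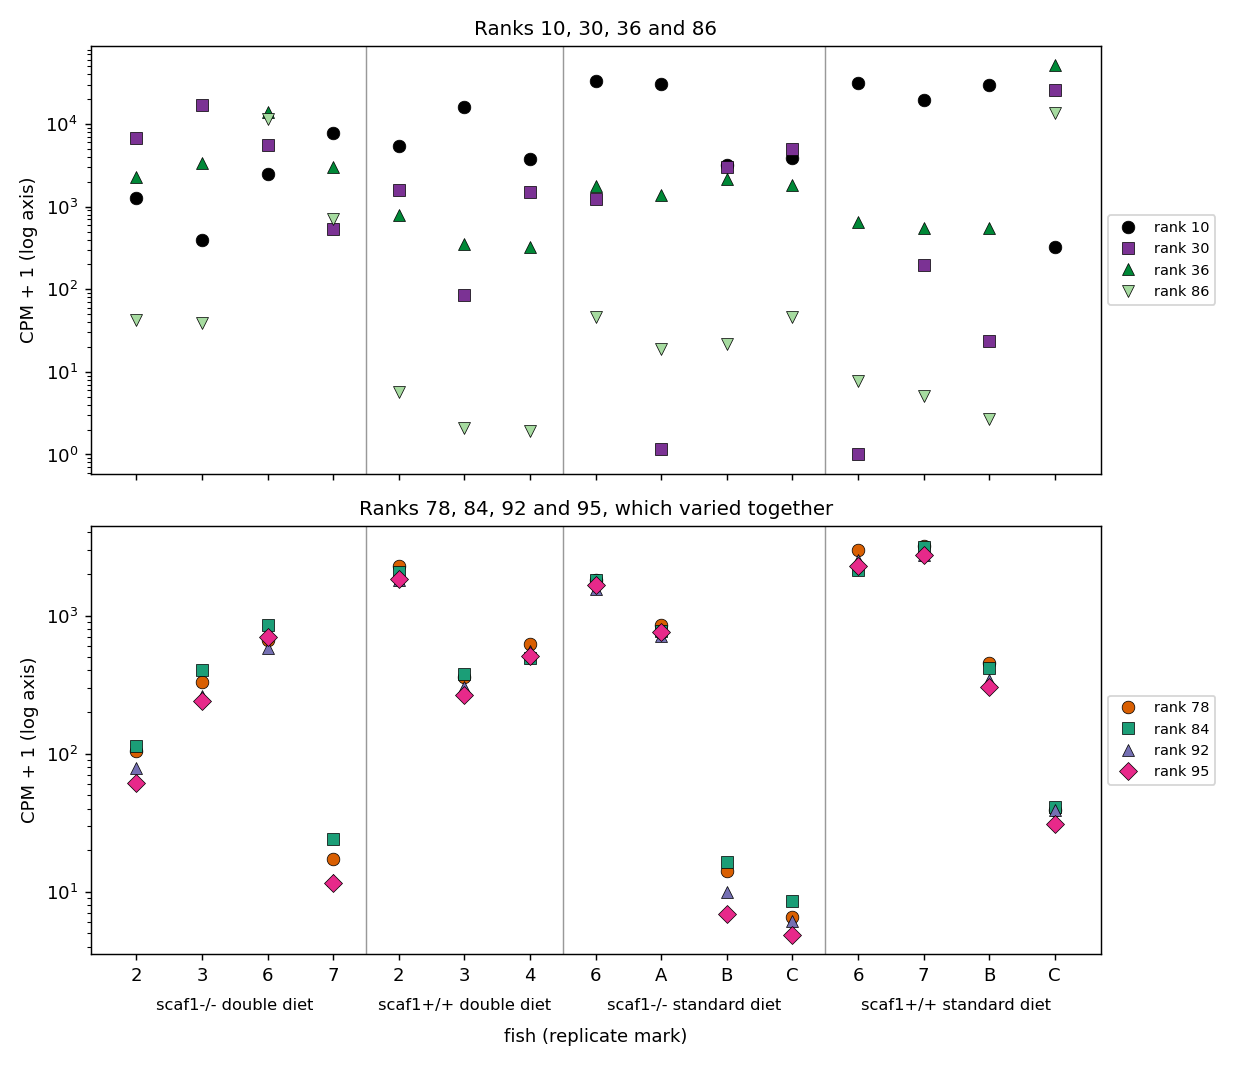
CPM + 1 on a log axis is plotted in each of the 15 fish for ranks 10, 30, 36 and 86 (top) and for ranks 78, 84, 92 and 95 (bottom). In the bottom plot the 4 symbols rise and fall together from fish to fish, without coinciding in every fish. Rank 78 runs from 5.60 CPM in scaf1-/- standard diet replicate C to 3209 CPM in scaf1+/+ standard diet replicate 7.

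Over all 4950 pairs of members the median correlation was 0.30, with 1599 pairs above 0.5 and 457 below -0.5. The members most like rank 1 over the 14 fish were rank 9 (r = 0.95), ENSDART00000145905.3 (rank 34, r = 0.89) and ENSDART00000015732.8 (rank 13, r = 0.89). Most like rank 2 were ENSDART00000077471.6 (rank 20, r = 0.91), rank 1 (r = 0.84) and ENSDART00000146702.3 (rank 46, r = 0.84). Most like rank 3 were ENSDART00000013011.7 (rank 69, r = 0.94), ENSDART00000167847.2 (rank 40, r = 0.91) and ENSDART00000030665.7 (rank 37, r = 0.91).

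The counting itself limits what single members show. Counts were estimated by kallisto, which divides a read among the transcripts it could come from, and in 67 of the 100 transcripts the count was not whole in any library (over 1e-06 from a whole number), as in 116 of the next 200 in rank. Ranks 1 and 2 are among the 67. For those 67 the level depends on how reads were split with other transcripts. This also holds for the 7 transcripts with no count in scaf1+/+ standard diet replicate C, whose counts were not whole in 14 or 15 libraries. Only 10 members had whole counts in every library, led by ENSDART00000060310.7 (rank 35) and ENSDART00000004692.9 (rank 41).

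On double diet, the fold changes of scaf1-/- over scaf1+/+ fish were above 0 for most of the abundant transcripts, and none passed the test. Of the 100, 90 had a log2 fold change above 0, against 45.3% of the 26970 transcripts tested, with a median of 0.52 against -0.09 over all tested. The shared estimate of the spread includes standard diet replicate C of scaf1+/+ fish, and without it the values were 87 of 100, against 44.5%, and a median of 0.48 against -0.11. The median over the next 200 in rank was 0.56 (0.52 without replicate C). Between fish of 1 group, the median deviation of the 100 from their group means had a pooled SD of 0.70 in log2 (15 fish). The members share these fish, so the counts above 0 here and below are not counts of independent results. The ranking used the levels of these same fish, more of them scaf1-/- than scaf1+/+, which favours transcripts high in scaf1-/- fish. The counts above 0 and the medians of the members, here and below, are thus partly set by the rule and are a description. The edgeR quasi-likelihood test called 0 of the 100, as 0% of those tested (adjusted p under 0.05 and log2 fold change over 1 in size), and DESeq2 called 0 of 98, against 0.357%. In this and the next comparisons DESeq2 gave no adjusted p to ranks 36 and 86 when all 15 fish were used. At an unadjusted p under 0.05 there were 2 members, both higher, where 2.22% of all tested were higher and 2.83% lower. Without replicate C there were 3, 2 higher and 1 lower, where 7.4% of all tested passed in either direction. With only the 2 double diet groups in the fit there were 12, 11 higher and 1 lower, where 8.56% of all tested passed, and blocking on the replicate mark gave 6, all higher, where 3.52% passed. The fit scales libraries by trimmed means, and without that scaling 61 of the 100 lay above 0, with a median of 0.12 against -0.53 over all tested. All 4 fish were above all 3 in CPM for 11 members, where 2.24% of all tested were, and below them for 1 member, where 9.83% were. Ranks 36 and 86, members through scaf1-/- fish, are among the 11, so this count is a description.

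The 2 members with p under 0.05 on double diet were ranks 86 and 36, whose levels stand above. Rank 36 had a log2 fold change of 3.87 ± 1.75 (SE) and rank 86 one of 10.63 ± 3.74, each with an edgeR adjusted p of 0.954 (3.19 and 7.55 without scaf1-/- double diet replicate 6). Without replicate C the spread estimated for both fell, and the values were 3.90 ± 0.69 for rank 36 and 10.68 ± 2.17 for rank 86, with edgeR adjusted p of 0.268 and 0.391. DESeq2 called 2 members in that setting, chosen after seeing the data, where 0.873% of transcripts were called. These were rank 36, with an adjusted p of 1.34e-07, and rank 86. Rank 36 averaged 491.4 CPM in scaf1+/+ double diet fish and 586.4 CPM in scaf1+/+ standard diet fish without replicate C. Rank 100 averaged 789.8 CPM, so rank 36 is a member through its scaf1-/- fish. Rank 86 is a member through replicate 6 of the scaf1-/- double diet group alone. The values of both here are thus a description. Over the settings run, the adjusted p of rank 36 went up to 1. The member that was lower in all 4 scaf1-/- fish was ENSDART00000141737.3 (rank 59, 1789 bases), named after its values were seen. It had 797.9, 703.9, 703.5 and 934.0 CPM in scaf1-/- fish, against 2086, 1365 and 2047 CPM in scaf1+/+ fish. On standard diet it had 1420, 1332, 950.7 and 862.9 CPM in scaf1-/- fish, against 2014, 2160, 1890 and 0 CPM in scaf1+/+ fish, the 0 being replicate C. Its log2 fold change on double diet was -0.73 ± 1.18 with an edgeR adjusted p of 0.954, and without replicate C it was -0.76 ± 0.35 with an adjusted p of 0.669.

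On standard diet, 81 of the 100 transcripts had a log2 fold change of scaf1-/- over scaf1+/+ fish above 0, against 46% of all tested, with a median of 0.70 against -0.09. Without replicate C it was 93 of 100, against 47%, with a median of 1.16 against -0.08. The median rested on few fish, since it was 0.40 without scaf1-/- replicate C. In ranks 1 to 10 the median was 1.48, in ranks 11 to 50 it was 0.71, in ranks 51 to 100 it was 0.68, and in the next 200 it was 0.28. These differences were smaller without scaf1+/+ replicate C, where the medians were 1.393, 1.197, 1.058 and 1.014 in the same order. edgeR called 0 members, as 0% of those tested, and DESeq2 called 0 of 98, against 0.182%. At an unadjusted p under 0.05 there were 12 members higher, where 3.64% of all tested were, and 2 lower, where 2.25% were. Without replicate C there were 28, all higher, where 7.94% of all tested passed in either direction, and without scaf1-/- replicate C there was 1, lower, where 3.36% passed. Leaving out 1 fish at a time gave 1 to 28, where 3.13% to 9.98% passed, and with only the 2 standard diet groups in the fit it was 1, where 1.49% passed. Standard diet fish with the same replicate mark correlated at 0.103 to 0.407 in their deviations, and some with other marks correlated better. With the mark as a block over all 15 fish, 7 members had an unadjusted p under 0.05, 3 higher and 4 lower, where 3.39% of all tested did. With that replicate block on the 8 standard diet fish alone it was 2, both lower, where 1.07% passed. All 4 scaf1-/- fish were above all 4 scaf1+/+ fish in CPM for 3 members, where 0.682% of all tested were, and below them for 0, where 0.467% were. Without replicate C it was 5 above (1.21% of all tested) and 1 below (3.89%). Ranks 36 and 86, members through scaf1-/- fish, are among the 5, so this count is a description.

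The 2 higher members with the smallest p on standard diet were ENSDART00000163922.2 (rank 61, 1431 bases) and ENSDART00000101449.5 (rank 64, 1948 bases). Rank 61 had 833.3, 1020, 1528 and 1981 CPM in scaf1-/- fish, against 696.3, 592.5, 1058 and 48.9 CPM in scaf1+/+ fish. Rank 64 had 923.2, 2068, 2047 and 1683 CPM in scaf1-/- fish, against 683.2, 860.7, 1490 and 82.8 CPM in scaf1+/+ fish. In both the groups overlapped, and replicate C was the lowest fish. The log2 fold changes were 2.01 ± 0.72 for rank 61 and 1.81 ± 0.72 for rank 64, each with an edgeR adjusted p of 0.846 (1.61 ± 0.67 and 1.45 ± 0.71, each with an adjusted p of 0.585, without replicate C). The 2 lower members were ranks 86 and 36, at -7.33 ± 2.85 and -3.40 ± 1.52 with an adjusted p of 0.846 each. Both reversed without replicate C, to 3.87 ± 1.60 for rank 86 and 2.44 ± 0.64 for rank 36, with an edgeR adjusted p of 0.585 each, and both also had a positive fold change with the replicate block. DESeq2 without replicate C called rank 36, at 2.34 with an adjusted p of 0.0222, where 0.56% were called, and over all settings its adjusted p went up to 1. Rank 36 is a member through its scaf1-/- fish, so its values here are a description.

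**Figure D5:**
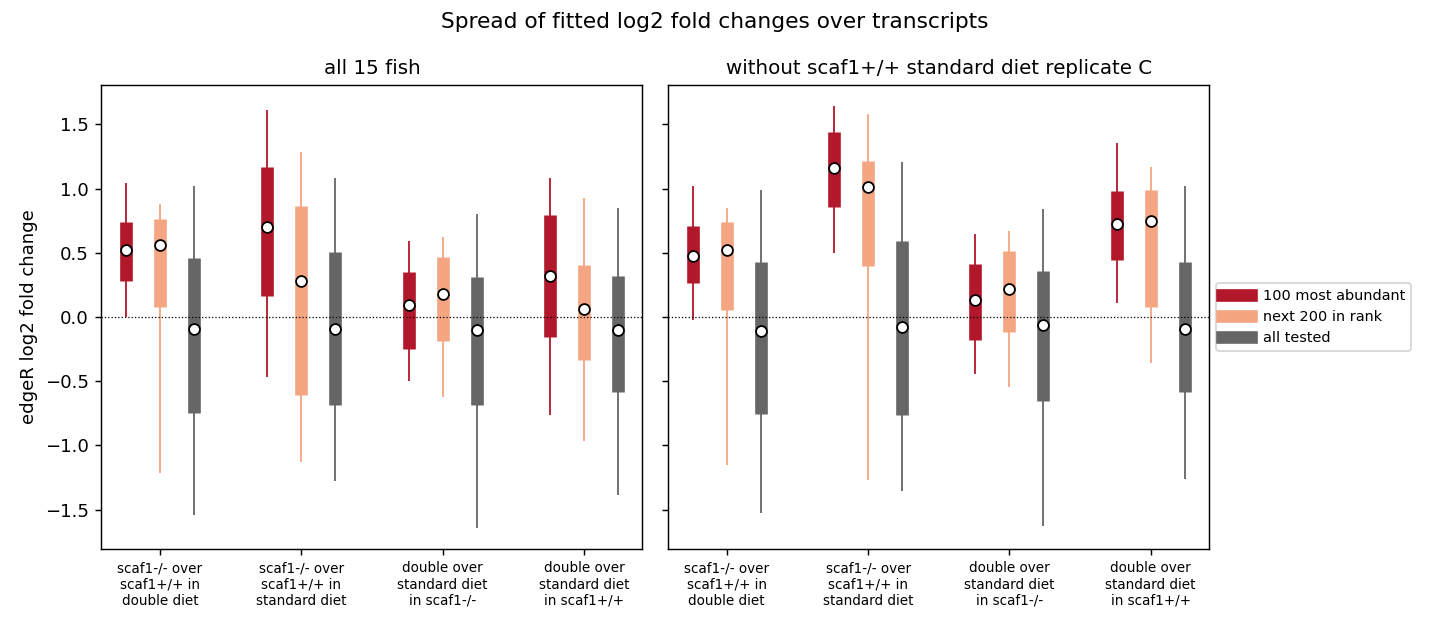
For the 4 comparisons, the fitted edgeR log2 fold changes of the 100 transcripts, of the next 200 in rank and of all transcripts tested are drawn with the median (circle), the middle 50% (thick bar) and the 10th to 90th percentile (thin line), from all 15 fish (left) and without scaf1+/+ standard diet replicate C (right). The median of the 100 lies above that of all tested in each comparison, by 0.61 for genotype on double diet and by 0.79 for genotype on standard diet in the left plot.

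Between diets, no abundant transcript passed the edgeR test in either genotype. In scaf1-/- fish, double over standard diet gave a log2 fold change above 0 in 60 of the 100, against 43.3% of all tested, with a median of 0.09 against -0.10 (62 of 100, against 46.2%, and 0.13 against -0.06 without replicate C). Leaving out 1 fish at a time moved that median between -0.10 and 0.45. Blocking on the replicate mark gave 0.70 against -0.41, with 78 of the 100 above 0, against 39% of all tested. The diets share only mark 6 in scaf1-/- fish and no mark in scaf1+/+ fish, so a blocked diet comparison rests largely on fish of other groups. In scaf1+/+ fish 67 of the 100 were above 0, against 43.2%, with a median of 0.32 against -0.10. Without replicate C it was 92 of 100, against 44.9%, and 0.72 against -0.09. Over the next 200 in rank the median was 0.18 in scaf1-/- and 0.06 in scaf1+/+ fish (0.22 and 0.75 without replicate C). edgeR called 0 members in either genotype, as 0% of those tested, and DESeq2 called 0 of 98, against 0.455% in scaf1-/- and 0.143% in scaf1+/+ fish. Members with an unadjusted p under 0.05 were 2 in scaf1-/- fish, both higher, where 1.4% of all tested were higher and 4.29% lower, and 1 higher and 2 lower in scaf1+/+ fish, where 1.41% and 2.48% were. With the block there were 12 in scaf1-/- fish, all higher, where 4.7% of all tested passed in either direction. In scaf1+/+ fish there were 12 without standard diet replicate B, 10 higher and 2 lower, where 6.37% passed, and 10 with library totals in place of trimmed means, 8 higher and 2 lower, where 3.19% passed. Without replicate C there were 4 in scaf1-/- fish, against 8.72%, and 4 in scaf1+/+ fish, against 4.67%, and DESeq2 then called 2 in scaf1-/- fish, against 1.23%, and 0 in scaf1+/+ fish, against 0.226%. In scaf1-/- fish all 4 double diet fish were above all 4 standard diet fish in CPM for 10 members (1.71% of all tested) and below them for 4 (2.55%). In scaf1+/+ fish this held for 8 members above (2.04%) and 0 below (1.16%). Without replicate C it held for 18 above (3.33%) and 1 below (12.1%), which was rank 10. Rank 83, a member through its double diet fish, is among those above in both genotypes. Rank 36, a member through scaf1-/- fish, is among the 10. These counts are therefore a description.

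The same member had the smallest p among those higher on double diet in both genotypes. ENSDART00000113098.5 (rank 83, 651 bases) had 2080, 1980, 1183 and 1253 CPM in scaf1-/- fish on double diet, against 337.8, 1155, 286.4 and 526.3 CPM in scaf1-/- fish on standard diet. In scaf1+/+ fish it had 571.1, 1026 and 1251 CPM on double diet, against 445.9, 289.3, 372.4 and 266.2 CPM on standard diet. The groups did not overlap in either genotype, though scaf1-/- standard diet replicate A lay just under the lowest scaf1-/- double diet fish. Its means were 1624 CPM in scaf1-/- and 949.2 CPM in scaf1+/+ double diet fish, and 576.5 and 343.5 CPM on standard diet. Rank 100 averaged 789.8 CPM, so rank 83 is a member through its double diet fish, and its values in this comparison are a description. The log2 fold change of rank 83 was 1.78 ± 0.58 in scaf1-/- fish and 1.56 ± 0.60 in scaf1+/+ fish, with edgeR adjusted p of 0.842 and 1 (1.81 ± 0.56 and 1.91 ± 0.65, with adjusted p of 0.481 and 0.986, without replicate C). DESeq2 without replicate C gave 1.78 with an adjusted p of 0.0480 in scaf1-/- fish, the lowest of the settings run, the highest being 1. The other higher member in scaf1-/- fish was rank 86, at 6.24 ± 2.71 with an edgeR adjusted p of 0.855, and at 3.16 without double diet replicate 6, the fish that made it a member, so its values here are a description too. The 2 lower members in scaf1+/+ fish were again ranks 86 and 36, at -11.71 ± 3.88 and -5.79 ± 1.94 with an edgeR adjusted p of 1, and without replicate C they were at -0.45 ± 1.49 and 0.12 ± 0.63.

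No member passed the test of the interaction, the genotype difference on double diet minus that on standard diet. edgeR called 0 of the 100, as 0% of those tested, DESeq2 called 0 of 98, against 0.136%, and 2 members had an unadjusted p under 0.05, where 3.87% of all tested did. These were ranks 86 and 36, both higher, at 17.95 ± 4.84 and 7.27 ± 2.34 with an edgeR adjusted p of 1 each (6.81 ± 2.14 and 1.45 ± 0.84 without replicate C). The values of both are again a description, since scaf1-/- fish of this comparison made them members. Of the 100, 32 had an interaction above 0, against 45.8% of all tested, with a median of -0.32 against -0.09. Without replicate C it was 13 of 100, against 47.2%, with a median of -0.61 against -0.06, and 1 member had an unadjusted p under 0.05, where 3.4% of all tested did. Leaving out 1 fish at a time moved that median between -0.61 and 0.05, and with the replicate block it was 0.01 against -0.22, with 51 of 100 above 0. Over the next 200 in rank the median interaction was -0.11 (-0.45 without replicate C).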

How the data were processed

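RNA of skeletal muscle from 15 female zebrafish was sequenced, 1 library per fish, and samples were grouped by their labels. Per the methods, the authors quantified reads with kallisto against the Ensembl release 94 cDNA, and the submitters' processing notes also name FastQC 0.11.8 and sleuth. The authors deposited estimated counts for each transcript beside its length and effective length, which were identical in all files. All libraries carry the same lane mark, so no sequencing batch could be compared. No label says more of the replicates than that each is a fish, and p-values measure the spread between these fish.

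Estimated counts were rounded to whole numbers. CPM used library totals, and TPM were computed here from the rounded counts and effective lengths. A count of 0 allows up to 3 counts per library, for counting error only. Transcripts kept by filterByExpr (smallest count 10) were scaled by TMM and tested with edgeR 4.0.16 in R 4.3.3. It was a robust quasi-likelihood test with 1 coefficient per group over all 15 fish and Benjamini-Hochberg adjustment over all 26970 tested. The test was also run on simulated counts, which lacked the differences in composition between these fish, and nothing here rests on that run. All 100 members passed the filter. SEs were derived from the fold change and its F value. Alternatives were DESeq2 1.42.0, other scalings, no filter, only the groups compared, a fit blocked on the replicate mark, and leaving out each fish. DESeq2 without scaf1+/+ standard diet replicate C was chosen after seeing the data.

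Marks that occur in both genotypes were examined by the correlation of deviations from group means over the tested transcripts. The 3 standard diet pairs had r = 0.407, 0.103 and 0.363, each over 0.1, and the 2 double diet pairs had r = -0.0834 and -0.152. The marks were therefore tried as pairs on standard diet, a choice that comes from these values alone. Some fish with other marks correlated better (up to 0.488), among them scaf1-/- replicate B with scaf1+/+ replicate C (0.352).

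The members, rules and lists were chosen with earlier results of these data known. Named members were ranks 1 to 10, those with the smallest p in each comparison (the first 2 in each direction are printed), the most and least variable, the first by rank among those with counts never or always whole, and the 3 ranks on each side of the limit. Ties in the fourth of these were broken by rank, and members named outside this rule are marked in the text. Marker and pathway lists by gene symbol were not used, since the files and the name tables used here pair no transcript with a gene.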

Additional observations from a re-analysis of the deposited data

Results flagged for a closer look

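In the 3 groups of 4 fish, the share of counts of the 100 transcripts and the levels of 23 named members were searched for a fish whose gap to its nearest neighbour took up more of the group's range than Dixon's 95% critical value for 4 samples. Of 72 sets, 6 held such a fish, where chance would give about 1 in 20 of independent sets, or 3.6. The sets share fish, some members were named for a wide spread or a small p, and rank 86 is a member through a flagged fish. The 6 can therefore not be read against the 3.6. Rank 5, ENSDART00000059366.7, had 33550 CPM in scaf1-/- double diet replicate 7, against 11172 to 13614 CPM in the other 3 fish. Replicate 6 of that group stood apart in rank 86, ENSDART00000190225.1, with 11370 CPM against 38.5 to 714.1 CPM, and in rank 36, ENSDART00000143781.3, with 14088 CPM against 2260 to 3354 CPM. In scaf1+/+ standard diet replicate C, the library with the fewest counts, rank 86 had 13784 CPM against 1.71 to 6.68 CPM, rank 36 had 51406 CPM against 553.9 to 650.0 CPM, and rank 30, ENSDART00000142582.3, had 26041 CPM against 0 to 195.2 CPM. The 3 transcripts that stood apart there are members with some of the widest ranges over the other fish as well. No member had an interaction past the threshold.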

How the results depend on the processing

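Over the settings tried, no member was called by edgeR in any comparison. With DESeq2, which called 52 of all transcripts for genotype on standard diet, 105 for genotype on double diet, 138 for the diets in scaf1-/- fish, 42 for those in scaf1+/+ fish and 40 for the interaction, where edgeR called 0, none of the 98 members with an adjusted p was called either. DESeq2 without scaf1+/+ standard diet replicate C called 161, 259, 355, 69 and 40 in the same order, with 1 member for genotype on standard diet, 2 for genotype on double diet and 2 for diet in scaf1-/- fish, rank 86 being among the members called in the last 2 of these. The members called were ranks 36, 83 and 86. They are members through fish in which they were higher, so these calls are a description. Leaving out 1 fish at a time, edgeR called 0 to 1, 0 to 3, 0 to 1, 0 to 1 and 0 to 1 transcripts, and 0 members throughout. The 3 came without scaf1+/+ standard diet replicate C in the fit, which gave 1 for the diets in scaf1-/- fish and 1 for the interaction. The cause of these differences was not tested.

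Leaving out fish gave a median log2 fold change of the members of 0.27 to 0.69 for genotype on double diet, 0.40 to 1.16 for genotype on standard diet, -0.10 to 0.45 for the diets in scaf1-/- fish and 0.17 to 0.72 for those in scaf1+/+ fish. The replicate block over 15 fish gave 0.77, 0.74, 0.70 and 0.80 in that order, and 0.65 for genotype on standard diet with its 8 fish alone. Blocked values for the diets rest largely on fish of other groups, since the diets share 1 mark in scaf1-/- fish and none in scaf1+/+ fish. Library totals moved the median of all tested to -0.53, -0.39, -0.45 and -0.34 in that order, so that a median of the members is to be read against it.

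ENSDART00000190225.1 reversed for genotype on standard diet without replicate C (3.87), with the replicate block over 15 fish (1.29) or 8 fish (1.91) and with DESeq2 without replicate C (3.72), and for diet in scaf1+/+ with the replicate block (4.91). ENSDART00000143781.3 reversed in the same settings for genotype on standard diet (2.44, 0.43, 0.63 and 2.34), and for diet in scaf1+/+ without replicate C (0.12), with the replicate block (1.03) and with DESeq2 without replicate C (0.078). Leaving out 1 fish at a time gave ENSDART00000190225.1 -8.06 to 3.87 for genotype on standard diet, and ENSDART00000143781.3 -3.94 to 2.44 for that comparison and -6.26 to 0.12 for diet in scaf1+/+ fish. The other 8 of the 12 named fold changes reversed in none of the settings run. The replicate block changed no edgeR call.

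Leaving out fish gave member shares of 45.2% to 48.5% in scaf1-/- and 41.0% to 45.8% in scaf1+/+ double diet fish, and 41.1% to 49.1% in scaf1-/- and 32.4% to 39.1% in scaf1+/+ standard diet fish. Without mitochondrial transcripts the total is smaller, so the share was higher in every group. It was 53.1% in scaf1-/- and 47.6% in scaf1+/+ double diet fish, and 49.9% and 38.9% on standard diet. A ranking by mean TPM kept 57 members, the other rankings 74 to 100. Groups held 3 or 4 fish, which limits each comparison.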
